A study of Rattus norvegicus with 8 samples.

Results

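The fibrillar collagens are the secreted collagen chains that assemble into striated fibrils, and 10 of their genes were followed here: Col1a1, Col1a2, Col3a1, Col5a1, Col5a2, Col5a3, Col11a1, Col11a2, Col2a1 and Col27a1. The members were taken by gene symbol from the deposited count table, and all 10 were found among its 37209 genes. The mRNA came from carotid arteries of male Sprague-Dawley rats that weighed 400 g on average and whose age is not given. In the 4 injured arteries (injury 1 to 4) the inner lining of the left carotid artery had been damaged with an angioplasty balloon 2 weeks before harvest. The 4 control arteries (control 1 to 4) were undamaged right carotid arteries that served as self-controls, so an animal's control artery had been exposed to the same surgery elsewhere in the body. The comparison asked which extracellular matrix genes changed in the injured wall.

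A fibrillar collagen molecule is a triple helix of 3 chains, made as a procollagen whose end pieces are cut off before it joins a fibril. Types I and III form the bulk of the fibrils in the arterial wall and give it tensile strength, while type V is buried in those fibrils, starts their assembly and limits their diameter. Type XI plays the same part for type II in cartilage, and chains of types V and XI can combine in the same molecule. Type XXVII is a fibrillar collagen best known from developing cartilage.

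Compared with the control arteries, Col11a1 and Col5a3 were upregulated after injury, and no fibrillar collagen gene passed the test for a fall. Without control 4, a library that stood apart from the other controls, Col1a2 fell by 0.92 on the log2 scale, short of the 2-fold criterion. Col11a1 rose 13.8-fold and Col5a3 rose 3.03-fold. Col1a1 and Col3a1, which held most of the counts of the family, did not pass the test in either direction. Within the libraries the balance of the chains shifted, with more type V relative to type I counts in every injured artery than in every control.

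The sequence just upstream of the transcription start was available for 7 of the 10 genes in the RefSeq annotation of rat assembly GRCr8 (Col1a1, Col3a1 and Col2a1 had no entry). The table gives a window of 250 bases before a transcript start, which need not be the outermost start of the gene: the windows of Col5a1 and Col11a2 lie wholly inside the annotated gene, as do 54 bases of the Col5a3 window and 86 of the Col27a1 window. The bases outside the annotated gene are shown 5′ to 3′ for the 2 upregulated chains (250 for Col11a1, 196 for Col5a3). For contrast, 250 are shown for Col1a2, a chain of the abundant type I that did not pass the test. An annotated start need not be where transcription begins, so the windows may cover unlike stretches of the promoters. Capitals mark CCAAT or its reverse complement ATTGG, the GC box GGGCGG or its reverse complement CCGCCC, and TATAAA or its reverse complement TTTATA. The sequences lie at chr2:204508886-204509135 on the plus strand for Col11a1, at chr8:27626003-27626198 on the minus strand for Col5a3 and at chr4:33518307-33518556 on the plus strand for Col1a2.
Col11a1: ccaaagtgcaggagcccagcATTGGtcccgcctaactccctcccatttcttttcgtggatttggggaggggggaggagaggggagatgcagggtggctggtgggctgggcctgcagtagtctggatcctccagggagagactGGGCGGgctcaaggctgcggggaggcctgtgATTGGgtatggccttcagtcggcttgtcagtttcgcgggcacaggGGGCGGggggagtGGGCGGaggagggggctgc
Col5a3: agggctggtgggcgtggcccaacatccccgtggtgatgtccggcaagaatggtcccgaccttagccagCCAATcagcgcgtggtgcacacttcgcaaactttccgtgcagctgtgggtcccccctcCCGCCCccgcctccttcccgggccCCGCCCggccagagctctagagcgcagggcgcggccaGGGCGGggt
Col1a2: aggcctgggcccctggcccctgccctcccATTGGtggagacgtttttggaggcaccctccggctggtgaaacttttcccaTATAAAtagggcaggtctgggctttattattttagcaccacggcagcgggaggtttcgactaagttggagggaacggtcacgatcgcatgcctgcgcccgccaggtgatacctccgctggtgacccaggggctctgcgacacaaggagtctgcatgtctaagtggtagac

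Over the whole windows of 250 bases, Col11a1 held 2 CCAAT and 3 GC box matches and Col5a3 held 1 CCAAT and 3 GC box matches, whereas Col1a2 held 1 CCAAT and 1 TATAAA match and 0 GC boxes. Of the other chains, Col11a2 held 3 GC boxes, Col5a1 and Col27a1 held 1 each, and Col5a2 held 0 matches to any of the 3 motifs. No match overlapped a match to another motif. Among all 33469 promoter windows of the same length, 34% held a CCAAT match on either strand, 30.5% a GC box and 12.9% a TATAAA match. The GC content was 65.6% for Col11a1, 68.8% for Col5a3, 71.6% for Col5a1, 62.8% for Col11a2, 58.8% for Col27a1, 58.4% for Col1a2 and 44.8% for Col5a2, against a median of 51.2% over all windows. These matches describe the letters only and show no binding.

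The libraries held 11459632 to 16658089 counts in the injured arteries and 13470754 to 15276952 in the controls, so that 3 counts, the floor used here, stood at 0.18 to 0.262 CPM (counts scaled to a common library size). Such limits cover counting error only. Control 4 stood apart: across genes its log2 CPM correlated with the other controls at 0.83 to 0.852, while they correlated with each other at 0.976 to 0.978. It was the lowest control for 6 of the 10 collagen genes and the highest for the other 4, so values without control 4 are given beside the collagen genes. Smooth muscle genes, which define the arterial media, were present in every library, with 10872 CPM or more for 10 contractile markers together.

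The family as a whole took 4.45% ± 1.70 (SD, n = 4) of all counts in the control arteries and 4.68% ± 0.799 (SD, n = 4) in the injured arteries. Controls 1 to 3 lay between 4.95% and 5.74%, control 4 at 1.95%, and the injured arteries between 3.57% and 5.31%, so the groups overlapped. The injured mean minus the control mean was 0.229 percentage points, and -0.605 points without control 4, and the direction of this share therefore rested on that library.

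The fibrillar collagens were tested together with all other genes by edgeR's quasi-likelihood test, and a gene was called where the Benjamini-Hochberg adjusted p, or FDR, was under 0.05 and the fold change above 2. All 10 members had enough counts, and 2 were called higher against 8.31% of all 14359 genes tested. None was called lower, against 2.57% of all genes, and with all arteries 0 members fell at an unadjusted p under 0.05 in edgeR or as calls in DESeq2. Every injured artery lay above every control for 3 members, against 14.2% of all genes, and below every control for 0, against 9.51%. The median log2 fold change was 0.49 over the members and -0.06 over all genes tested, with 7 members above 0. Without control 4, 3 members were called higher, against 12.3% of genes, and 0 lower, against 3.94%. DESeq2 also called 3 higher, against 9.42% of genes, and edgeR with the replicate number as a block called the same 2, against 6.64%.

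**Figure D1:**
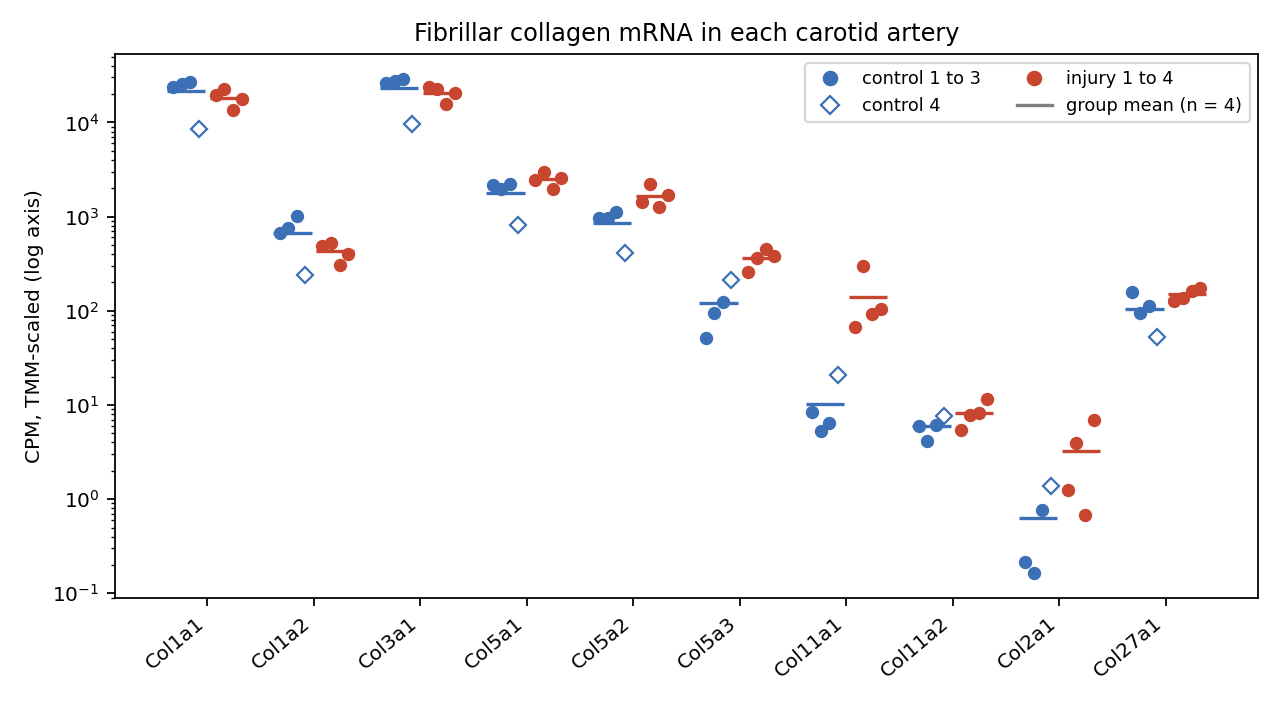
CPM of each fibrillar collagen gene in each artery on a log axis, with TMM scaling. Points are single arteries (open diamond, control 4) and short bars are group means of 4. Col5a2, Col5a3 and Col11a1 have all injured points above all control points, whereas Col1a1, Col1a2 and Col3a1 have all injured points between control 4 and the other controls.

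Col1a1 and Col3a1, the chains of the main arterial fibrils, were among the 10 genes with the most counts over all libraries. Col1a1, which encodes the α1 chain of type I, stood at 23918, 25847, 26993 and 8466 CPM in controls 1 to 4 and at 19637, 22546, 13634 and 17566 CPM in injured arteries 1 to 4. All injured arteries were thus below controls 1 to 3 and above control 4. The log2 fold change was -0.22 (standard error 0.40) with an FDR of 0.746 in edgeR's quasi-likelihood test, and an interval of 2 standard errors ran from 0.498-fold to 1.49-fold. Without control 4 it was -0.48 (standard error 0.18) with an FDR of 0.0802.

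Col3a1, the single chain of type III, moved with Col1a1 from artery to artery. It stood at 26482, 27234, 29012.5 and 9569 CPM in the controls and at 24039.9, 22492, 15555 and 20292 CPM in the injured arteries. Control 4 was again below all injured arteries, and the other controls were above them. On the log2 scale the change was -0.16 (standard error 0.38), the FDR was 0.805 in edgeR's test, with an interval from 0.524-fold to 1.52-fold, and became -0.43 with an FDR of 0.0965 without control 4. With scaling to library totals alone it was 0.03, so the sign of the Col3a1 change depended on the scaling.

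Col1a2 encodes the α2 chain that joins 2 α1 chains in the common form of type I. Its CPM was 669.9, 754, 1006 and 243 in the controls and 488, 525, 303 and 402 in the injured arteries, the same order of groups as for Col1a1. Its log2 fold change was -0.64 (standard error 0.39) with an FDR of 0.316 in edgeR's quasi-likelihood test. Without control 4 it fell by 0.92 on the log2 scale with an FDR of 0.0144, short of the 2-fold criterion. The table held 2.22 to 3.73 counts of Col1a2 per 100 of Col1a1, although both chains belong to the same protein. Counts also scale with transcript length and with what the annotation assigns to a gene, the counting step is not given in the sources used here, and the level of Col1a2 is therefore uncertain.

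Of the type V chains, the minor partners inside type I fibrils, Col5a3 was the chain that was called. Col5a1, the α1 chain found in nearly all type V molecules, stood at 2178, 1981, 2232 and 805 CPM in the controls and at 2419.5, 2985, 1945 and 2566 CPM after injury. Injured artery 3 lay below all of controls 1 to 3, and the groups overlapped. For Col5a1 the log2 fold change was 0.46 (standard error 0.32) with an FDR of 0.378 in edgeR's test. Without control 4 it was 0.21 with an FDR of 0.327.

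Col5a2, the α2 chain of type V, separated the groups without being called. Its CPM was 964, 969, 1114 and 411 in the controls and 1436, 2196, 1278 and 1712 in the injured arteries. The lowest injured artery was above the highest control. In the fit to all arteries the log2 fold change was 0.94 (standard error 0.32) with an FDR of 0.0857 in edgeR's quasi-likelihood test. Without control 4 it was 0.70 with an FDR of 0.0265, below the fold criterion, and scaling to library totals alone gave 1.12 with an FDR of 0.0352, a call.

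Col5a3, the least widespread chain of type V, was called higher. It stood at 51.9, 93.7, 125 and 214 CPM in controls 1 to 4 and at 259, 367, 457 and 384 CPM in the injured arteries. All injured arteries exceeded control 4, which for this chain was the highest of the controls. The mean rose from 121 ± 68.7 to 367 ± 81.9 CPM (SD, n = 4), by 1.60 on the log2 scale (standard error 0.41, FDR 0.0309 in edgeR's quasi-likelihood test). Without control 4 it was 2.02 (FDR 0.00288), and with the replicate block 1.76 (FDR 0.0255). When each artery was left out in turn, Col5a3 was called in 3 of 8 fits, with log2 fold changes from 1.34 to 2.02. The study lists a primer for real-time PCR of Col5a3. It chose the genes for that method among abundant matrix genes that changed more than 2-fold in its sequencing, and its text does not name them all. The genes it reports as significantly raised after injury by that method do not include Col5a3.

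**Figure D2:**
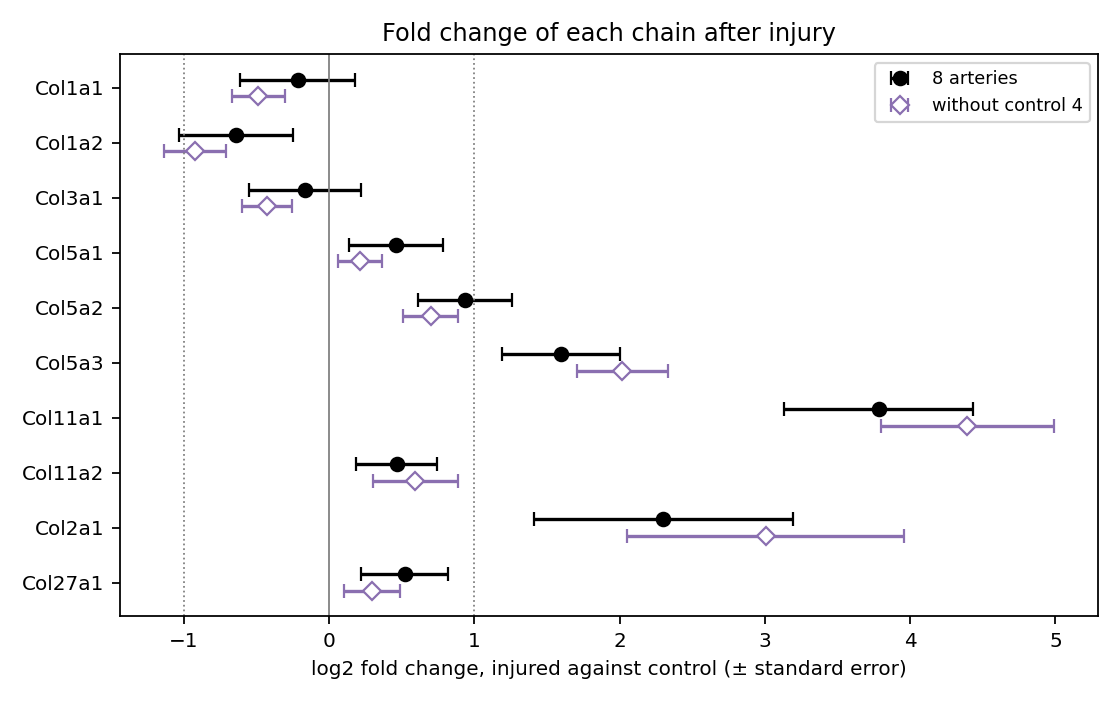
Log2 fold change of each chain, injured against control, with standard errors, from edgeR's fit to all 8 arteries (black circles) and without control 4 (open diamonds). Dotted lines mark 2-fold changes, and Col11a1 (3.78 and 4.39) and Col5a3 (1.60 and 2.02) lie to the right of the upper line in both fits.

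The chains named for cartilage included the member with the largest change. Col11a1, the α1 chain of type XI, had 8.36, 5.33, 6.38 and 21.0 CPM in the controls and 67.2, 302, 91.5 and 106 CPM in the injured arteries. The groups lay well apart, with control 4 the highest control and injured artery 2 far above the other injured arteries. The log2 fold change was 3.78 (standard error 0.65, FDR 0.00652 in edgeR's quasi-likelihood test), with an interval from 5.57-fold to 34.0-fold. It was 4.39 without control 4, 3.10 without injured artery 2 and 3.69 with the replicate block (FDR 0.0318). Col11a1 was called in 8 of 8 fits that left out an artery, and it was the member that still passed when the test was made against a fold change of 2.

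Col11a2, the α2 chain of type XI, was sparse and did not follow Col11a1. Its CPM was 6.05, 4.18, 6.10 and 7.57 in the controls and 5.38, 7.91, 8.20 and 11.6 in the injured arteries. Injured arteries 2, 3 and 4 exceeded all controls and injured artery 1 did not. Its log2 fold change was 0.47 (standard error 0.28) with an FDR of 0.301 in edgeR's test, and the interval ran from 0.938-fold to 2.04-fold. Without control 4 the log2 fold change was 0.60 with an FDR of 0.163.

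Col2a1, the single chain of cartilage type II, was close to the detection floor, with 3, 2, 11 and 20 counts in the controls and 21, 55, 12 and 85 counts in the injured arteries. In CPM, injured arteries 2 and 4 (3.99 and 6.95) were above all controls, whereas injured arteries 1 and 3 (1.26 and 0.674) lay below control 4 (1.39). The log2 fold change was 2.30 (standard error 0.89) with an FDR of 0.119 in edgeR's quasi-likelihood test. Col2a1 was called without control 4 (3.01, FDR 0.0465) and by DESeq2 (2.32, adjusted p = 0.0385). Col27a1, the type XXVII chain, had 158, 95.5, 113 and 52.9 CPM in the controls and 128, 137, 162 and 176 CPM after injury, with overlapping groups. Its log2 fold change was 0.52 (standard error 0.30) with an FDR of 0.281 in edgeR's test, and 0.30 with an FDR of 0.277 without control 4.

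A ratio of the counts of a pair of chains within a library does not depend on the scaling, and 6 such ratios were compared by exact permutation tests over the 70 relabellings of the arteries, two-sided, with Benjamini-Hochberg adjustment over the 6. The smallest p that 4 arteries against 4 allow is 0.0286, and 4 ratios reached it, with an adjusted p of 0.0429 in these exact tests. A ratio reaches it where the groups do not overlap, and how often other pairs of genes do so was not counted. Among single genes, every injured artery lay above every control for 14.2% and below every control for 9.51%. The relabellings treat the arteries as independent, although each control is described as the other artery of an injured animal. That pairing was not used, since no label ties the arteries to animals. Type V rose against type I: Col5a1 counts per 100 of Col1a1 were 9.11, 7.67, 8.27 and 9.50 in the controls and 12.3, 13.2, 14.3 and 14.6 in the injured arteries. Control 4, low for both genes, was not apart from the other controls in this ratio. The mean rose from 8.64 ± 0.827 to 13.6 ± 1.04 (SD, n = 4), 1.58-fold, and 1.63-fold without control 4.

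Within type V the chains also shifted. Col5a2 counts per 100 of Col5a1 were 44.2, 48.9, 49.9 and 51.1 in the controls and 59.4, 73.6, 65.7 and 66.7 after injury, 1.37-fold higher with no overlap. Col11a1 counts per 100 of Col5a1 rose from 0.384, 0.269, 0.286 and 2.61 to 2.78, 10.1, 4.71 and 4.12. Control 4 came close to injured artery 1 here, and the 9.13-fold difference of the geometric means became 15.6-fold without control 4. Col5a3 per 100 of Col5a1 overlapped, at 2.38, 4.73, 5.60 and 26.6 in the controls and 10.7, 12.3, 23.5 and 14.97 after injury (exact permutation p = 0.171, adjusted 0.206). The overlap came from control 4 alone, since the other controls lay below every injured artery, and the 2.29-fold difference of the geometric means became 3.69-fold without it.

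The ratio of type III to type I did not pass the test, whereas the ratio of the chains within type I did. Col3a1 per 100 of Col1a1 was 109 ± 3.40 in the controls and 113 ± 9.51 after injury (SD, n = 4), with a log2 difference of 0.05 (standard error 0.07, exact permutation p = 0.514). Col1a2 per 100 of Col1a1 fell from 3.08 ± 0.435 to 2.33 ± 0.111 (SD, n = 4), a log2 difference of -0.39 with an adjusted p of 0.0429 in the exact permutation test. All injured arteries were below all controls in that ratio, and the small counted part of Col1a2 limits what it measures.

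**Figure D3:**
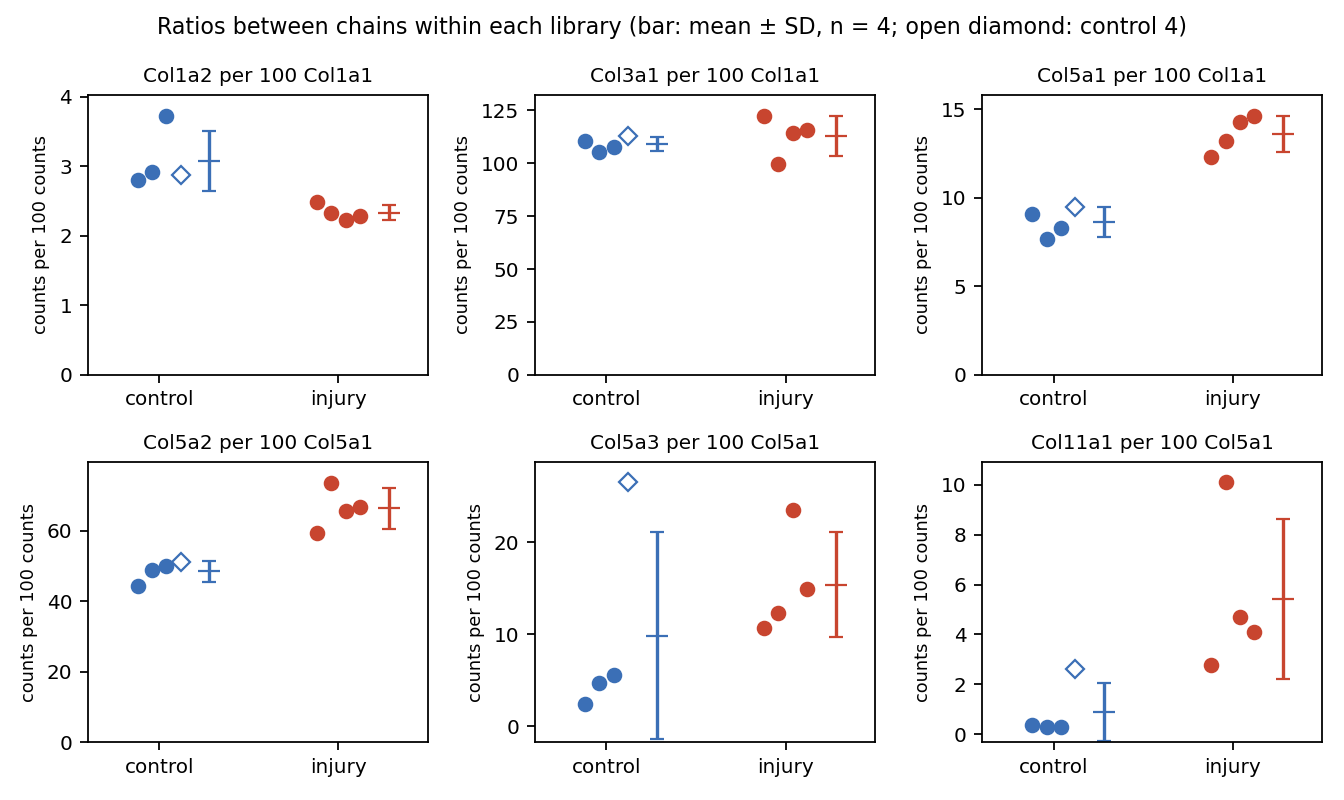
Counts of a chain per 100 counts of another chain in the same library, for 6 pairs; points are arteries (open diamond, control 4) and bars are mean ± SD of 4. Col5a1 per 100 Col1a1 rises from 8.64 to 13.6 and Col5a2 per 100 Col5a1 from 48.5 to 66.3, without overlap, and Col3a1 per 100 Col1a1 overlaps between the groups.

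As a share of the counts of the family, types I and III together held 92.4% to 94.5% in the controls and 88.2% to 91.1% in the injured arteries, and type V held 5.34% to 7.22% and 8.49% to 11.01%. The chains of types II, XI and XXVII together held 0.282% ± 0.108 in the controls and 0.693% ± 0.198 after injury (SD, n = 4), a share that was not tested, and their ranges overlapped, with control 4 at the top of the controls (0.419%) and the lowest injured artery at 0.416%. These shares are of counts, which grow with transcript length.

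The artery-to-artery profile of log2 CPM, centred on its own mean over the 8 arteries, was compared between genes by the root mean square difference. Col3a1 was 0.08 from Col1a1, with 0 genes outside the family nearer. The nearest genes outside the family were Cercam at 0.09, Spon1 at 0.12 and Copz2 at 0.12, and Col1a2 was farther at 0.23, with 161 other genes nearer. For Col11a1 the nearest were Plekhg4 at 0.32, LOC103691037 at 0.35 and Bcl2a1 at 0.41. In controls 1 to 3, Plekhg4 (0.288, 0.164 and 0.0693 CPM) and LOC103691037 (0, 0 and 0 CPM) were near or under the floor. Their distances therefore rest on few counts. Col5a3 was 1.22 from Col11a1, with 654 genes nearer. Of these neighbours, Plekhg4 was the most uneven among the injured arteries, at 2.87, 19.9, 5.84 and 6.14 CPM, with injured artery 2 highest as for Col11a1.

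Col24a1, a further fibril-forming chain outside the 10, was sparse at 1.15, 0.410, 1.11 and 0.417 CPM in the controls and 1.14, 6.89, 4.10 and 3.03 CPM in the injured arteries. It was called higher with a log2 fold change of 2.27 (standard error 0.61, FDR 0.0368 in edgeR's test), but injured artery 1 lay among the controls. With the replicate block its FDR was 0.137, and it was called in 2 of 8 fits that left out an artery.

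The genes that act on fibrillar collagen were followed in 9 lists, Col24a1 included, of which 78 genes were found and 69 tested. Of these, 11 were called higher and 6 lower, against the shares of 8.31% and 2.57% over all genes. Among 18 genes for folding and modification of procollagen, 1 was called in each direction. P4ha3, a prolyl 4-hydroxylase subunit, rose from 5.41 ± 2.53 to 30.7 ± 16.2 CPM (SD, n = 4), by 2.50 on the log2 scale (FDR 0.00844 in edgeR's test). Leprel1, the older name of the prolyl 3-hydroxylase P3h2, fell by 1.38 on the log2 scale (FDR 0.0138), and with the replicate block its FDR was 0.069. Serpinh1, the collagen chaperone HSP47, stood at 1491 ± 406 and 1532 ± 225 CPM (SD, n = 4), which differ by 0.04 on the log2 scale (FDR 0.929 in edgeR's test).

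None of the 9 tested genes of procollagen export was called by edgeR or DESeq2, but 0 had a log2 fold change above 0. In edgeR's test 3 fell at an unadjusted p under 0.05, and 1 of these at an FDR under 0.05. The median log2 fold change was -0.27, and -0.40 without control 4. In that fit 0 were called, though several fell at an FDR under 0.05, short of the 2-fold criterion. Propeptide removal had 2 of 7 genes higher and 1 lower. Adamts14, an N-propeptidase, rose from 5.20 ± 0.850 to 25.6 ± 7.73 CPM (SD, n = 4; log2 fold change 2.29, FDR 0.00101 in edgeR's test). Tll1, a C-propeptidase of the tolloid family, rose by 1.99 on the log2 scale (FDR 0.000965), and PCOLCE2, an enhancer of C-propeptide removal, fell by 2.08 (FDR 0.00176). The main C-propeptidase Bmp1 and the enhancer Pcolce had log2 fold changes of 0.43 and 0.56 with FDRs of 0.359 and 0.233 in edgeR's test.

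Of the 5 cross-linking enzymes 0 were called by edgeR with all arteries and TMM scaling or by DESeq2, and 1 rose at an unadjusted p under 0.05. Lox, which starts the covalent cross-links of fibrils, stood at 849 ± 305 and 905 ± 201 CPM (SD, n = 4), which differ by 0.09 on the log2 scale (FDR 0.869 in edgeR's test). Loxl2, singled out after its values were seen, separated the groups, and its log2 fold change of 0.91 (FDR 0.0306 in edgeR's test) was under the 2-fold criterion. It was called with scaling to library totals alone (1.09, FDR 0.01 in edgeR's test) and in 1 of 8 fits that left out an artery.

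Of the 9 tested collagens that sit on the surface of fibrils, 3 were called higher and 2 lower. Col20a1 stood at 5.69, 6.89, 6.51 and 5.63 CPM in the controls and 40.9, 58.3, 70.8 and 76.7 CPM in the injured arteries (log2 fold change 3.32, FDR 0.000207 in edgeR's test). Col12a1 rose from 53.2 ± 25.5 to 453 ± 288 CPM (SD, n = 4; log2 fold change 3.09, FDR 0.00539), with 873 CPM in injured artery 2, the artery that was also highest for Col11a1. Col16a1 rose from 130 ± 9.65 to 513 ± 78.8 CPM (SD, n = 4; log2 fold change 1.98, FDR 0.000226 in edgeR's test). By real-time PCR after injury the study reports a significant rise of Col12a1. It lists a primer for Col16a1 but does not name that gene among those raised after injury. In cultured smooth muscle cells given vesicles from platelets it reports a significant rise of Col12a1 and Col16a1. Col19a1 fell by 2.66 and Col9a1 by 2.01 on the log2 scale (FDR 0.00441 and 0.0343), and with the replicate block the FDR of Col9a1 was 0.086. Without control 4, 5 of these surface collagens were called higher, against 12.3% of all genes. Those added were Col9a2 (5.91 on the log2 scale, FDR 0.000694) and Col9a3 (2.72, FDR 0.0397 in edgeR's test). With all arteries their FDRs were 0.192 and 0.442 in the same test. Col9a2 was near the floor in controls 1 to 3, at 0.216, 0.328 and 0.416 CPM, and at 11.5 CPM in control 4.

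Among the 8 tested proteoglycans that regulate fibril growth, 2 were called lower (3 without control 4, with Prelp at -1.10 and an FDR of 0.0024 in edgeR's test) and 0 higher, with 0 higher also in DESeq2 and at an unadjusted p under 0.05. Dcn, or decorin, fell from 1630 ± 455 to 736 ± 216 CPM (SD, n = 4; log2 fold change -1.15, FDR 0.0277 in edgeR's test), with injured artery 1 at 1048 CPM and control 4 at 994 CPM overlapping. Ogn, or osteoglycin, fell by 1.96 on the log2 scale (FDR 0.0332), and with the replicate block the FDRs of Dcn and Ogn were 0.0852 and 0.0606. Bgn, or biglycan, was listed at 0 in all 8 libraries and could not be tested.

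Of 8 tested collagen receptors, Itga2, the collagen-binding α2 integrin, was called higher, from 3.95 ± 0.660 to 9.23 ± 1.10 CPM (SD, n = 4; log2 fold change 1.22, FDR 0.00419 in edgeR's test). Without control 4, Ddr2, a collagen-binding receptor kinase, was also called, with a log2 fold change of -1.13 (FDR 0.00229 in edgeR's test), against -0.89 (FDR 0.1) with all arteries. Ddr2, Prelp, Col9a2, Col9a3 and Mmp2 were named after their values were seen. Of 4 tested enzymes of collagen breakdown 3 were called higher, against 8.31% of all genes. Mmp2, the most abundant of the 4, was not called. It stood at 1490 ± 550 and 1561 ± 259 CPM (SD, n = 4; log2 fold change 0.07, FDR 0.905 in edgeR's test). Mmp9, a gelatinase, was at most 0.277 CPM in any control and at 3.05, 21.0, 21.0 and 15.7 CPM in the injured arteries (FDR 0.0027 in edgeR's test). The lysosomal collagenase Ctsk rose by 1.48 and the membrane-bound collagenase Mmp14 by 1.28 on the log2 scale (FDR 0.0208 and 0.0305), and with the replicate block their FDRs were 0.0708 and 0.0631.

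**Figure D4:**
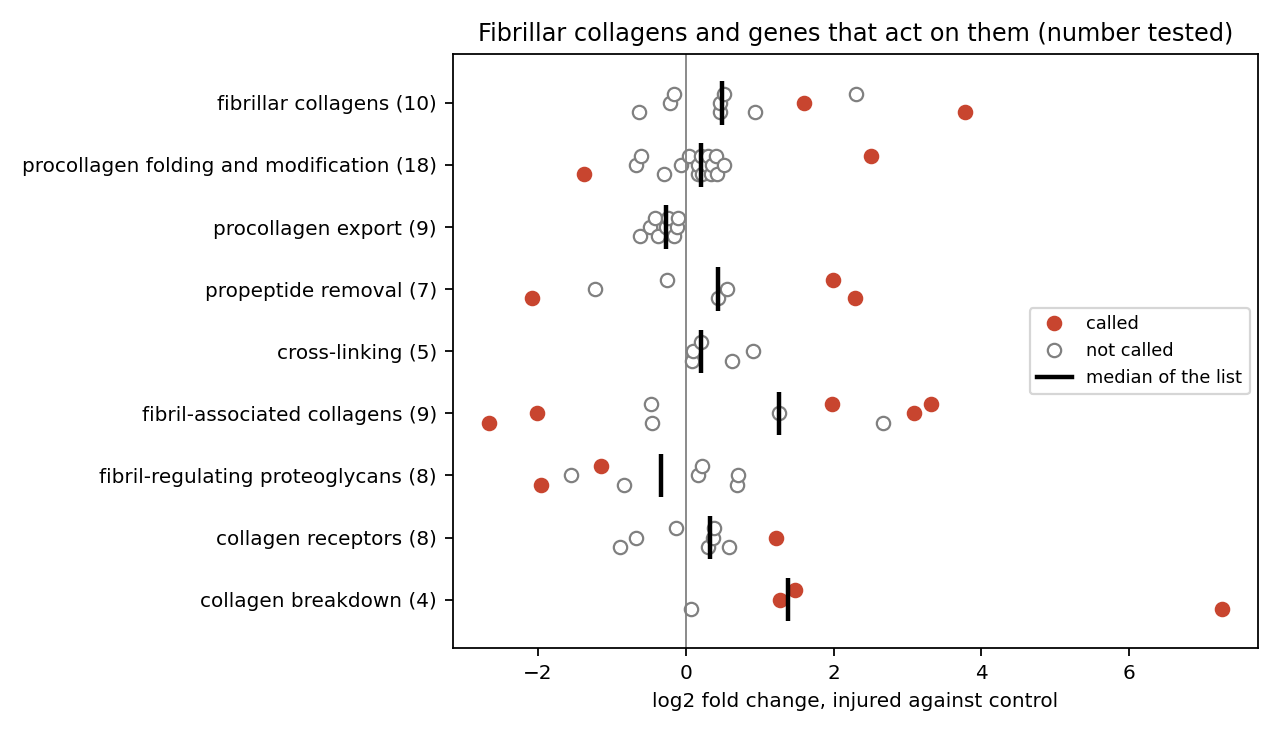
Log2 fold changes, injured against control, of the tested genes in the fibrillar collagen family and in 8 lists of genes that act on it, with called genes filled and list medians as bars. The medians are 0.49 for the family, 1.26 for the fibril-associated collagens, -0.27 for procollagen export and 1.38 for collagen breakdown.

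Marker genes of the cell types that the tissue could hold were summed in each library. The 10 contractile smooth muscle markers summed to 38653 to 52443 CPM in controls 1 to 3, 18086 CPM in control 4 and 10872 to 17149 CPM after injury, and 7 of 10 were called lower (9 without control 4 and 4 with the replicate block), against 2.57% of all genes (3.94% without control 4). In bulk tissue, fewer cells of a type and less RNA per cell cannot be told apart. Fibroblast markers summed to 1418 to 1633 CPM in controls 1 to 3, 901 CPM in control 4 and 1064 to 1859 CPM after injury. This sum joins genes that went opposite ways. Of 6 tested, 1 was called higher and 1 lower, against 8.31% and 2.57% of all genes. They were Dpt (log2 fold change 2.03, FDR 0.00257) and Pi16 (-1.56, FDR 0.0115 in edgeR's test), and 4 were not called. Sympathetic neuron markers were at 13.2 to 19.8 CPM in controls 1 to 3 and at 7036 CPM in control 4, the library low in Col1a1 and Col3a1. In injured arteries 1 to 4 they were at 90.9, 4.79, 1075 and 5.48 CPM, and injured artery 3, with 1075, had the lowest Col1a1 of its group. Their part in the collagen values was not tested.

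Cartilage markers, which bear on Col11a1 and Col2a1, summed to 14.4 to 22.9 CPM in the controls (15.2 in control 4) and to 121, 402, 131 and 328 CPM in injured arteries 1 to 4. Of the 5 tested, 4 were called higher, against 8.31% of all genes, and 3 with the replicate block, where Sox9 had an FDR of 0.0725. Acan (log2 fold change 6.20) and Comp (3.16) held most of the sum, while the cartilage marker Matn1 was at 0 in all libraries. RGD1311447, or Snorc, was not called (0.27, FDR 0.712 in edgeR's test). Lect1 (Cnmd), Hapln1, Chad and Ucma were too sparse to test. The mean CPM was lower after injury for Lect1 (0.611 to 0.362) and Hapln1 (0.257 to 0.139). It was higher for Chad (0.268 to 0.775) and Ucma (0.0962 to 0.492). Injured arteries 2 and 4 were highest for these markers and for Col2a1, and injured artery 2 was highest for Col11a1. Skeletal muscle markers summed to 84.5 to 253 CPM in the controls and 304 to 1100 CPM after injury, macrophage markers to 184 to 254 and 775 to 1039 CPM, and proliferation markers to 11.2 to 20.2 and 92.9 to 144 CPM, each with no overlap. Schwann cell markers (279 to 1156 CPM in the controls, 478 to 1593 after injury), endothelial markers (901 to 2374 and 824.5 to 1172) and adipocyte markers (100.9 to 839.99 and 150.4 to 368) overlapped. Of 8 endothelial markers, 2 were called higher and 1 lower, against 8.31% and 2.57% of all genes. The part of these cells in the collagen changes was not tested.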

How the data were processed

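The authors deposited a table of raw read counts per gene symbol for 4 injured and 4 control carotid arteries. The submitters' processing notes name HISAT2 2.0.4, and the counting tool, strand setting and genome build are not given in the sources used here. The extraction text of the labels names a brain region, whereas all other labels name the carotid artery.

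Counts were scaled with TMM factors, filtered with filterByExpr (14359 of 37209 genes kept) and tested with edgeR 4.0.16 in R 4.3.3 by quasi-likelihood with Benjamini-Hochberg adjustment, and calls needed FDR under 0.05 and a fold change above 2. The study's methods name DESeq with the same criteria, and DESeq2 1.42.0 was an alternative. CPM values printed are TMM-scaled. Chain ratios used a pseudocount of 0.5 per count in Python 3.11.15. The scripts were tested on simulated data. In simulated counts edgeR called 62% of 200 genes that were changed 4-fold, so a gene not called may still have changed.

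Alternatives were other scaling factors, library totals alone, other count filters, a replicate block, calls by FDR without the fold criterion, edgeR's test against a 2-fold change, each artery left out, and a pseudocount of 5 for the ratios. The control is described as the other artery of the same animal, but no label ties the numbers to animals, and p-values measure the spread between these arteries. The deviations of same-numbered arteries correlated at 0.301, 0.450, -0.520 and -0.416, so the numbers give only a possible pairing.

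The named genes were all members, Col24a1, up to 3 called genes per direction in each list, 6 fixed collagen genes (Serpinh1, Bmp1, Pcolce, Lox, Dcn, Bgn) and the 3 nearest profiles to Col1a1 and Col11a1. The members and all lists were chosen with earlier results of these data known. Of 80 pathway genes, Mia2 and Col21a1 had no match. Promoter windows came from RefSeq GRCr8.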

Additional observations from a re-analysis of the deposited data

Results flagged for a closer look

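In 34 groups of 4 values (10 genes and Col24a1 in CPM and 6 chain ratios, each in both groups), the gap of the highest or lowest artery to its nearest neighbour was divided by the range of the group. It passed Dixon's 95% critical value for 4 values in 6 groups, where chance gives 1.7. Control 4 was low for Col1a1, at 8466 CPM against 23918 to 26993 in the other controls (gap 0.834 of the range), and for Col3a1, at 9569 CPM against 26482 to 29012.5 (0.870). Control 4 was high for Col5a3 per 100 Col5a1, at 26.6 against 2.38 to 5.60 (0.867), and for Col11a1 per 100 Col5a1, at 2.61 against 0.269 to 0.384 (0.951). Injured artery 2 was high for Col11a1, at 302 CPM against 67.2 to 106 (0.836). Control 3 was high for Col1a2 per 100 Col1a1, at 3.73 against 2.80 to 2.92 (0.873). Of these values, 4 belong to the same library, so the groups are not independent.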

How the results depend on the processing

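The 149 member results counted here leave out the settings that change the criterion, FDR alone and the test against a 2-fold change. Of them, 140 kept their direction and side of the threshold, 5 lost a call (all of Col5a3) and 3 gained one (Col2a1 and Col5a2). The remaining 1 changed sign, Col3a1 at a log2 fold change of 0.028 with library totals alone. That scaling raised the median log2 fold change of all genes by 0.175. In the test against a 2-fold change Col5a3 also lost its call. Over all genes 1562 were called (76.4% higher), 1007 with at least 10 counts in every artery, 2468 by FDR alone (62.8% higher), 661 in the test against a 2-fold change (90.8% higher) and 1142 to 2398 with an artery left out, the highest without control 4. Of the fibrillar collagens 2 were called, 1 in the test against a 2-fold change (Col11a1) and 1 to 3 with an artery left out. Col5a3 was the call lost without control 2, control 3 or injured arteries 2, 3 or 4. Of the pathway genes 17 were called, 9 in the test against a 2-fold change, 10 with the replicate block and 10 to 21 with an artery left out (10 without injured artery 2, 11 without control 1). The replicate block left 1187 of all genes called and both collagen calls. The 4 ratios that passed did so with a pseudocount of 5 too, and their direction held with each artery left out. Depth limits Col2a1 most, at 2 and 3 counts in 2 controls.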
